A study of Mus musculus with 8 samples.

Results

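The nuclear-encoded subunits of the oxidative phosphorylation complexes were followed through 8 mouse follicle libraries. Members were chosen by gene symbol alone: names of the Nduf, Sdh, Uqcr, Cox4 to Cox8 and Atp5 families, of which 84 matched. The choice removed 2 pseudogenes whose names end in -ps and a digit, which gave 82 genes, and 2 further pseudogenes named with -ps alone (Atp5c1-ps and Atp5l2-ps) were set aside. The remaining 80 subunit genes, of 21997 genes listed in both count tables, comprise 35 of complex I, 4 of complex II, 8 of complex III, 18 of complex IV and 15 of complex V. Ndufa4 is placed in complex IV, where its protein is now known to sit.

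Each library was made from polyadenylated RNA of a single follicle, freed with a needle from a C57BL/6 ovary. The preantral follicles (PF), which have no fluid-filled cavity, and the small antral follicles (SAF), which have begun to form one, came from wild type mice (WT) or arose from transplanted female germline stem cells (FGSCs, labelled TF here). Each of the 4 groups (PF-WT and SAF-WT, PF-TF and SAF-TF) held 2 libraries. The sources used here do not give ages, transplant hosts or any allele or marker of the transplanted cells. They also do not say if the 2 follicles of a group stem from different mice, and p-values measure only the spread between these follicles.

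Oxidative phosphorylation is the last stage of respiration in the inner mitochondrial membrane. Complexes I and II take electrons from NADH and succinate, complex III passes them to cytochrome c, complex IV hands them to oxygen, and complex V, the ATP synthase, uses the proton gradient that complexes I, III and IV build. Most subunits are encoded in the nucleus, while a small set of catalytic subunits is encoded in mitochondrial DNA, and several complex IV subunits exist as widely expressed and tissue-restricted isoforms. Mitochondria of oocytes and of steroid-producing follicle cells differ in form and in the way they are fuelled, and the oocyte depends on pyruvate that the granulosa cells supply.

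Most members were higher in small antral than in preantral follicles, in both sources. Between the wild type groups 53 of the 78 members with enough counts to test rose, beside 12.7% of all 17925 genes tested, and 1 fell, beside 22.5%. Between the transplanted groups 61 rose, beside 18.2%, and 2 fell, beside 25.0%. The median log2 fold change of the members was 0.90 in wild type and 1.06 in transplanted follicles, against -0.20 and -0.08 over all genes. Calls rest on edgeR's quasi-likelihood test with Benjamini-Hochberg adjustment over all genes and a threshold of 0.05. Levels are CPM, counts scaled to library size after TMM normalization.

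The wild type count rested in part on SAF-WT replicate 1, without which 32 members rose, beside 4.79% of all genes in that fit. Without PF-WT replicate 1, 4 members fell there, beside 16.3%: Cox6a2, Ndufv1 (-1.17, adjusted p = 0.0278), Uqcrc1 (-1.01, adjusted p = 0.0452) and Atp5b (-0.96, adjusted p = 0.0296). Another scaling moved the median of all genes by over 0.1, from -0.33 with library totals to 0.14 with the authors' scale factors in wild type and from -0.14 to 0.27 in transplanted follicles. The members' median stood 1.09 to 1.10 above that of all genes in wild type under every scaling tried, and 1.15 above it in transplanted follicles. A change of scaling shifts all genes nearly alike, so this gap could hardly change and says nothing on the choice of scaling. After a correction for GC content and length, which shifts genes unequally, the gap was 0.73 and 0.82.

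The sum over all 80 members was 25701 and 24924 CPM in the PF-WT libraries and 48547 and 44891 CPM in the SAF-WT libraries. In the follicles from transplanted cells it was 15941 and 17555 CPM at the preantral and 32702 and 33632 CPM at the small antral stage. The 4 groups did not overlap in this sum, with PF-TF lowest, then PF-WT, SAF-TF and SAF-WT. In bulk RNA of whole follicles, a change in the mix of cells and a change in RNA per cell cannot be told apart.

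Total counts ran from 7656108 to 9805287 per library. Oocyte markers fell between the stages, from 8603 and 7984 summed CPM in PF-WT to 514.5 and 2894 in SAF-WT, and from 22224 and 17645 in PF-TF to 515.5 and 242.5 in SAF-TF. Of the 15 oocyte markers, 9 fell in wild type, beside 22.5% of all genes, and all 15 fell in transplanted follicles, beside 25.0%. Stroma markers mostly moved the other way, with 9 of 10 higher at the small antral stage in each source (beside 12.7% and 18.2%). In wild type 1 was lower, beside 22.5%, and in transplanted follicles 0 were. Their sum went from 521.7 and 250.5 CPM in PF-WT to 8154.5 and 5806 in SAF-WT. In transplanted follicles it went from 80.5 and 154.4 in PF-TF to 2190.5 and 1530.3 in SAF-TF. Luteal markers reached 37760 and 26997 summed CPM in SAF-TF against 4156 and 3436 in SAF-WT. All 10 were called higher in SAF-TF, beside 4.61% of all genes. Of 10 theca markers tested, 6 were higher in SAF-TF and 4 lower, beside 4.61% and 5.34% of all genes. The luteal and theca lists share Star, Cyp11a1, Lhcgr and Hsd3b1. Granulosa markers were summed at 843.6 and 1029 CPM in SAF-WT, below every other library. The part of these shifts in the results on the subunits was not tested.

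**Figure D1:**
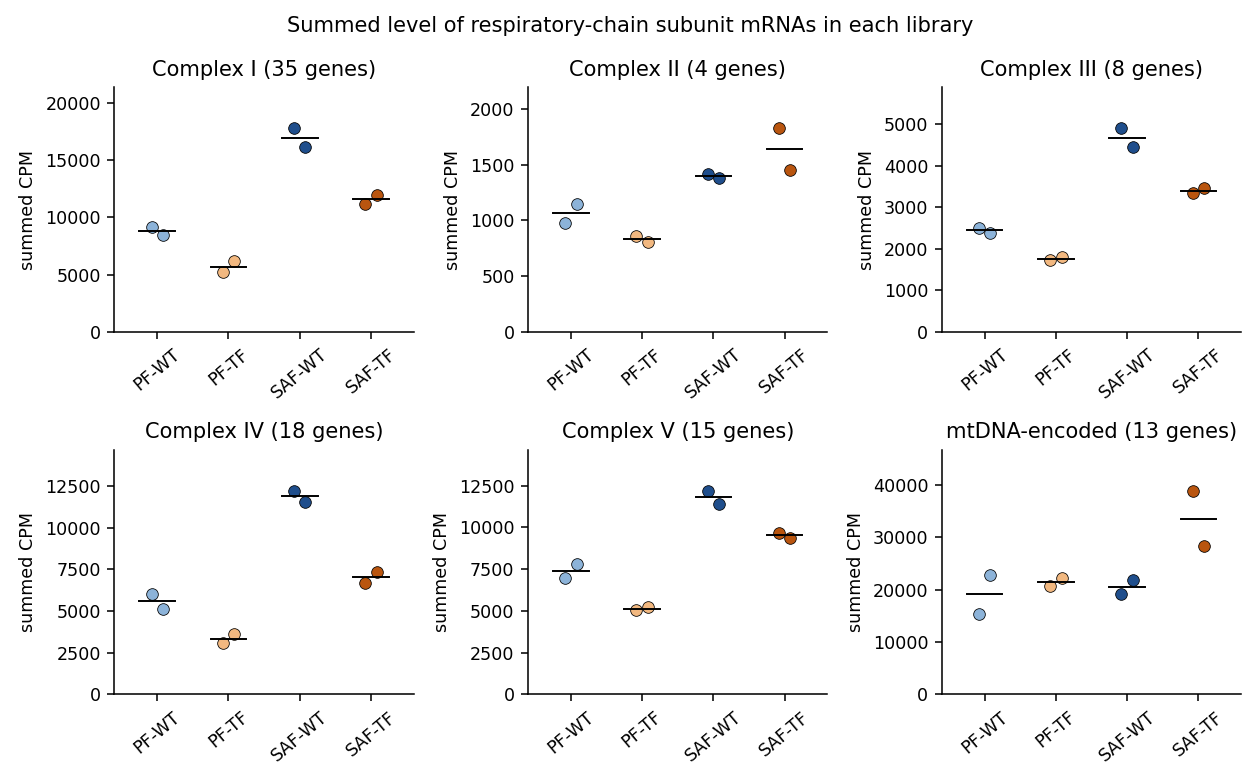
Summed CPM of the subunit genes of each complex in each of the 8 libraries (points), with group means (lines), and of the 13 mtDNA-encoded subunits in the last panel. Complexes I, III, IV and V share the order PF-TF, PF-WT, SAF-TF, SAF-WT, whereas complex II was highest in SAF-TF (1830 and 1457 CPM) and the mtDNA-encoded subunits were highest there too (38868 and 28211 CPM).

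Promoter windows were available for 65 of the 80 members, as 70 windows of 300 bases from RefSeq (GRCm38.p6), each from 250 bases before to 50 after a transcription start. They were searched on both strands for the letters of 4 factors known for driving respiratory genes: NRF1 (GCGCANGCG), the ETS factors (CCGGAAG), the estrogen-related receptors (CAAGGTCA) and YY1 (AANATGGCG). NRF1 letters stood in 21 member windows (30.0%, against 11.7% of windows of all genes tested), ETS letters in 16 (22.9%, against 15.3%), YY1 letters in 10 (14.3%, against 4.3%) and estrogen-related receptor letters in 4 (5.7%, against 1.2%). At least 1 of the 4 stood in 39 member windows, or 55.7%, against 28.1% of windows of genes tested and 16.8% of all 32851 windows. A match describes letters only.

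Of the windows, 6 are printed on the strand of the gene, 5′ to 3′, with matches to any of the 4 motifs in capitals: the most abundant subunit (Atp5g3), 3 members with strong stage differences (Ndufb7, Ndufb10, Cox6b1), and 2 tissue isoforms that moved apart from them or from each other (Cox6b2, Cox7a1). Atp5g3 lies on the minus strand (chr2:73911277-73911576), Ndufb7 on the plus strand (chr8:83566508-83566807), Ndufb10 on the minus strand (chr17:24724374-24724673), Cox6b1 on the minus strand (chr7:30626065-30626364), Cox6b2 on the minus strand (chr7:4753045-4753344) and Cox7a1 on the plus strand (chr7:30183921-30184220).
Atp5g3: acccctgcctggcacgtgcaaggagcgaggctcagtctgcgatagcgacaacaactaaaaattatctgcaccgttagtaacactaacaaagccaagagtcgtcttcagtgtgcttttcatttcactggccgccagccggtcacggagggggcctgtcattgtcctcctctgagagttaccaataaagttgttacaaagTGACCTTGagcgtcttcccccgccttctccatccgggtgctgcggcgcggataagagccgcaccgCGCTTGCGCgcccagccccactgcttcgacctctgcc
Ndufb7: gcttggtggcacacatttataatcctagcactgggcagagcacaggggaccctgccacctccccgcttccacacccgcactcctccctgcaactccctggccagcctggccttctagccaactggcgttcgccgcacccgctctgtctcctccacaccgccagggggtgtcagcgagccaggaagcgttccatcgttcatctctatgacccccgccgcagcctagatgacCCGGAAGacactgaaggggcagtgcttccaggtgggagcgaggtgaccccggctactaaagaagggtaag
Ndufb10: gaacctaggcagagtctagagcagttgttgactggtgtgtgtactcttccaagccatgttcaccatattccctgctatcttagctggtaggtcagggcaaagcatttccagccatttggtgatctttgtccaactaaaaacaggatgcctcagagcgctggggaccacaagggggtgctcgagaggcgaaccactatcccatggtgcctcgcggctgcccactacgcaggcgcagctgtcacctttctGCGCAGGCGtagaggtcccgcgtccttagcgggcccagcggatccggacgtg
Cox6b1: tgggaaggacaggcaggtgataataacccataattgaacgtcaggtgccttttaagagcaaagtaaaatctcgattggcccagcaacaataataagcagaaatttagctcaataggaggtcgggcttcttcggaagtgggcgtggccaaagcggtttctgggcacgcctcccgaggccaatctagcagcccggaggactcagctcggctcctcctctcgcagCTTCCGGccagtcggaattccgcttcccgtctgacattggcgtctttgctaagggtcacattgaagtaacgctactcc
Cox6b2: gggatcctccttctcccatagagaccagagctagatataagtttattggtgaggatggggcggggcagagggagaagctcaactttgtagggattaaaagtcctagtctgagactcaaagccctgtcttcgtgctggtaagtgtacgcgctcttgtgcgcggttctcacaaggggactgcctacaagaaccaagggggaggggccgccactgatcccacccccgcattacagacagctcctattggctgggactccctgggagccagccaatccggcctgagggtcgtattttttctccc
Cox7a1: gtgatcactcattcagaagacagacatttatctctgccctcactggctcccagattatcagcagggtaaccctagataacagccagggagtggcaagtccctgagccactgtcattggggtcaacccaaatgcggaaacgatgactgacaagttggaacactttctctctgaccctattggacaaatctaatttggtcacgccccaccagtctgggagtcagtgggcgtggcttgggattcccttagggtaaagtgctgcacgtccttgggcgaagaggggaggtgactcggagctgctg
The Atp5g3 window holds an NRF1 and an estrogen-related receptor match, Ndufb10 an NRF1 match, and Ndufb7 and Cox6b1 an ETS match each. No match stood in the windows of Cox6b2 and Cox7a1, which also hold fewer CG dinucleotides (10 and 7) than the median member window (19). Neither trait was particular to tissue isoforms. Of the 13 complex IV windows only 3 (23.1%) held any of the motifs, that of Cox6b1 among them. The widely expressed Cox7b had no match and 5 CG dinucleotides.

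Complex I, the NADH dehydrogenase, gave the most calls between the stages. Of its 35 nuclear genes 27 rose in wild type and 31 in transplanted follicles, and none fell. The 28 accessory subunits, which surround and stabilise the catalytic core, accounted for 24 and 25 of these calls, with medians of 1.07 and 1.18 on the log2 scale. The 7 core subunits, which carry the flavin and the iron-sulphur clusters, gave 3 calls in wild type (Ndufs3, Ndufs8 and Ndufv2) and 6 in transplanted follicles.

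Ndufb10, an accessory subunit of the membrane arm, had 212 and 192 CPM in PF-WT and 575 and 511 CPM in SAF-WT. In transplanted follicles it went from 98.0 and 130 CPM to 337 and 348 CPM. Both small antral groups lay above both preantral groups, with log2 fold changes of 1.43 ± 0.20 (SE, adjusted p = 0.00081) in wild type and 1.58 ± 0.20 (adjusted p = 0.000307) in transplanted follicles. Ndufb7, another membrane-arm subunit, had 234 and 205 CPM in PF-WT, 487 and 433 in SAF-WT, 111 and 137 in PF-TF and 374 and 408 in SAF-TF. Its difference in transplanted follicles, 1.66 ± 0.20 (adjusted p = 0.000207), had the smallest adjusted p of all members there.

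Ndufs8, an iron-sulphur core subunit, rose in both sources, with log2 fold changes of 0.94 ± 0.19 (adjusted p = 0.00482) in wild type and 1.46 ± 0.19 (adjusted p = 0.000345) in transplanted follicles. Ndufv1, the flavin-binding core subunit that accepts electrons from NADH, ran the other way in value: 83.5 and 153 CPM in PF-WT against 59.3 and 66.2 in SAF-WT, and 152 and 130 in PF-TF against 154 and 78.0 in SAF-TF. Its wild type groups did not overlap, but the difference of -0.91 ± 0.36 did not pass the test (adjusted p = 0.0726), and its transplanted groups overlapped. Ndufs1, the largest core subunit and an electron carrier next to the flavin site, had 64.2 and 119 CPM in PF-WT and 79.2 and 81.6 in SAF-WT, which overlapped. Ndufs1 rose in transplanted follicles only at the margin, by 0.82 ± 0.30 (adjusted p = 0.0492). That call and the wild type call of Ndufs3 (0.58 ± 0.20, adjusted p = 0.0441) were each lost under several alternatives.

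Complex II, succinate dehydrogenase, is also an enzyme of the tricarboxylic acid cycle and has no mtDNA-encoded subunit. Of its 4 genes, Sdhb rose in wild type, and Sdhb and Sdhc rose in transplanted follicles. Sdhb, the iron-sulphur subunit, had 400 and 477 CPM in PF-WT, 764 and 716 in SAF-WT, 268 and 303 in PF-TF and 935 and 741 in SAF-TF. The stages did not overlap in either source, with log2 fold changes of 0.75 ± 0.20 (adjusted p = 0.0155) and 1.55 ± 0.20 (adjusted p = 0.000307). The wild type call was lost when either SAF-WT library was left out (adjusted p = 0.106 and 0.0592). Sdha, the flavoprotein that oxidises succinate, overlapped between stages in both sources, with 84.6 and 133 CPM in PF-WT and 92.6 and 91.8 in SAF-WT.

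In complex III, the cytochrome bc1 complex, all 5 small subunits rose in both sources. Their transcripts have 405 to 547 bases, against 1363 to 1896 for the other 3 members of the complex. Uqcrb, a small subunit close to the quinone site, had 404 and 332 CPM in PF-WT and 1306 and 1013 in SAF-WT, and 161 and 195 in PF-TF and 579 and 642 in SAF-TF. Every small antral library lay above every preantral one, with log2 fold changes of 1.66 ± 0.21 (adjusted p = 0.000482) and 1.78 ± 0.22 (adjusted p = 0.000214).

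The core proteins Uqcrc1 and Uqcrc2, relatives of mitochondrial processing peptidases, did not pass the test in either source. Uqcrc1 had 122 and 322 CPM in PF-WT, 126 and 170 in SAF-WT, 330 and 242 in PF-TF and 378 and 214 in SAF-TF, so that both stages overlapped in both sources. Uqcrfs1, the Rieske iron-sulphur protein, did not pass in wild type (0.22 ± 0.22, adjusted p = 0.465), where it passed after the GC and length correction (0.66, adjusted p = 0.0422). It rose in transplanted follicles (0.87 ± 0.22, adjusted p = 0.0111), a call lost without SAF-TF replicate 2 (adjusted p = 0.0572).

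Complex IV, cytochrome c oxidase, held the members that moved most in either direction. Of the 11 widely expressed subunits 9 rose in each source and none fell. Cox6c, a small membrane subunit, had 816 and 660 CPM in PF-WT and 2501 and 2306 in SAF-WT, which made the difference of 1.70 ± 0.19 (adjusted p = 0.000229) the call with the smallest adjusted p among members in wild type. In transplanted follicles Cox6c went from 391 and 440 to 837 and 949 CPM (1.10 ± 0.19, adjusted p = 0.00137). Per kilobase of transcript Cox6c ranked behind only Atp5g3 in mean level over the 8 libraries (2211 against 2444.5 CPM per kilobase).

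Cox4i1, a core-binding subunit with an allosteric site for ATP, had 877 and 884 CPM in PF-WT, 1822 and 1792 in SAF-WT, 567 and 692 in PF-TF and 1225 and 1248 in SAF-TF. It rose in both sources, by 1.04 ± 0.18 (adjusted p = 0.00191) and 0.98 ± 0.18 (adjusted p = 0.00182). Cox5a, a subunit on the matrix side, differed less: 493 in both PF-WT libraries against 619 and 605 CPM in SAF-WT (0.31 ± 0.17, adjusted p = 0.177). In transplanted follicles it had 345 and 324 CPM against 452 and 446 (0.43 ± 0.17, adjusted p = 0.0655). Its stages did not overlap in either source, and neither difference passed the test, though the latter passed under 8 alternatives, among them DESeq2 (0.54, adjusted p = 0.026). The wild type difference passed with upper-quartile factors (0.59, adjusted p = 0.0295) and with the authors' scale factors (adjusted p = 0.0193).

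The tissue isoforms differed among themselves. Cox6a2, the heart and skeletal muscle form of subunit 6a, had 170 and 85 counts in PF-WT and 6 and 10 in SAF-WT, or 22.3 and 9.43 against 0.688 and 1.18 CPM. In transplanted follicles Cox6a2 had 55 and 82 counts at the preantral and 13 and 16 at the small antral stage. It was the member called lower in both sources, with log2 fold changes of -4.06 ± 0.60 (adjusted p = 0.000982) and -2.14 ± 0.55 (adjusted p = 0.0119). The call in transplanted follicles was lost without PF-TF replicate 2 (adjusted p = 0.0559), SAF-TF replicate 1 (0.0782) or SAF-TF replicate 2 (0.0512). Cox6a2 and the oocyte marker sum fell together between the stages. Between the preantral groups the oocyte sum was higher in PF-TF, while Cox6a2 was lower there in value. It had 6.09 and 8.23 CPM in PF-TF, a difference without a call (-1.14 ± 0.50, adjusted p = 0.235). The part of the oocyte marker shift in the Cox6a2 result was not tested. Striated muscle markers summed to 47.8 to 84.1 CPM in the preantral and 28.3 to 82.8 CPM in the small antral libraries. Of 15 such markers 8 could be tested. In wild type 1 was higher and 2 lower, beside 12.7% and 22.5% of all genes. In transplanted follicles 3 were higher and 2 lower, beside 18.2% and 25.0%. Myh2, a myosin heavy chain (-3.20 and -5.08), and Ttn, the titin gene (-2.29 and -4.31), fell in both sources, and Tnnt2, cardiac troponin T (4.19 and 5.08), rose. Cox6a1, the widely expressed counterpart, rose in both sources (0.98 ± 0.20, adjusted p = 0.00499, and 1.48 ± 0.20, adjusted p = 0.000428) and held 96.7% to 99.9% of the subunit 6a level per kilobase in every library.

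Cox6b2, known as the testis form of subunit 6b, had the smallest p of the members for a difference between the sources in the stage effect. It had 54.0 and 51.5 CPM in PF-WT and 64.1 and 61.0 in SAF-WT, against 73.9 and 67.9 in PF-TF and 27.2 and 35.3 in SAF-TF. PF-TF was thus highest and SAF-TF lowest, and no 2 groups overlapped. Cox6b2 did not pass the test between the wild type stages (0.25 ± 0.22, adjusted p = 0.421) and fell between the transplanted ones (-1.18 ± 0.23, adjusted p = 0.00268). The test of the difference between those stage effects gave -1.43 ± 0.32 and an adjusted p of 0.0753, which missed the threshold. It passed with DESeq2 (-1.47, adjusted p = 0.0099) and after a GC and length correction (-1.75, adjusted p = 0.039).

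The widely expressed Cox6b1 rose in both sources, by 1.06 ± 0.19 (adjusted p = 0.00278) and 1.60 ± 0.20 (adjusted p = 0.000226). Cox6b2 made up 13.7% and 16.0% of the subunit 6b level per kilobase in the PF-WT libraries, against 8.86% and 9.07% at the small antral stage of wild type. In transplanted follicles this share went from 31.8% and 27.0% (PF-TF) to 5.18% and 6.12% (SAF-TF). The groups did not overlap in this share, and PF-TF was highest.

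Cox7a1, a second heart and muscle isoform, moved opposite to Cox6a2. It had 3.02 and 2.11 CPM in PF-WT, 21.0 and 18.6 in SAF-WT, 0.775 and 3.51 in PF-TF and 20.9 and 24.0 in SAF-TF. All 4 small antral libraries lay above all 4 preantral ones, with log2 fold changes of 2.95 ± 0.57 (adjusted p = 0.0036) and 3.37 ± 0.57 (adjusted p = 0.00133). These were the largest rises of any member in each source, from a low level. Over the same stages 6 of 10 smooth muscle and pericyte markers rose in wild type, beside 12.7% of all genes. In transplanted follicles 9 of 10 rose, beside 18.2%. Stroma markers rose as given above. Between the small antral groups the levels parted. The smooth muscle and pericyte sum was 3781 and 3024 CPM for wild type libraries, against 1961 and 1349 CPM for those from transplanted cells. The stroma sum was also lower in SAF-TF, while Cox7a1 overlapped between these groups. The part of both marker sets in the Cox7a1 result was not tested. The share of Cox7a1 in the subunit 7a level per kilobase went from 0.903% and 0.83% to 3.25% and 3.16% between the wild type stages. Between the transplanted stages it went from 0.578% and 2.10% to 7.32% and 6.50%.

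Cox4i2, the isoform known from lung and hypoxic cells, stayed between 1.22 and 11.4 CPM, and neither stage difference passed the test (adjusted p = 0.0658 in wild type and 0.254 in transplanted follicles). Cox8b, another muscle isoform, reached at most 15 counts and Cox8c, a testis isoform, at most 11, and both failed the low-count filter. Cox7a2l, which helps to join complexes III and IV into supercomplexes, did not pass between the stages (0.39 ± 0.21, adjusted p = 0.182, and 0.04 ± 0.21, adjusted p = 0.89).

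**Figure D2:**
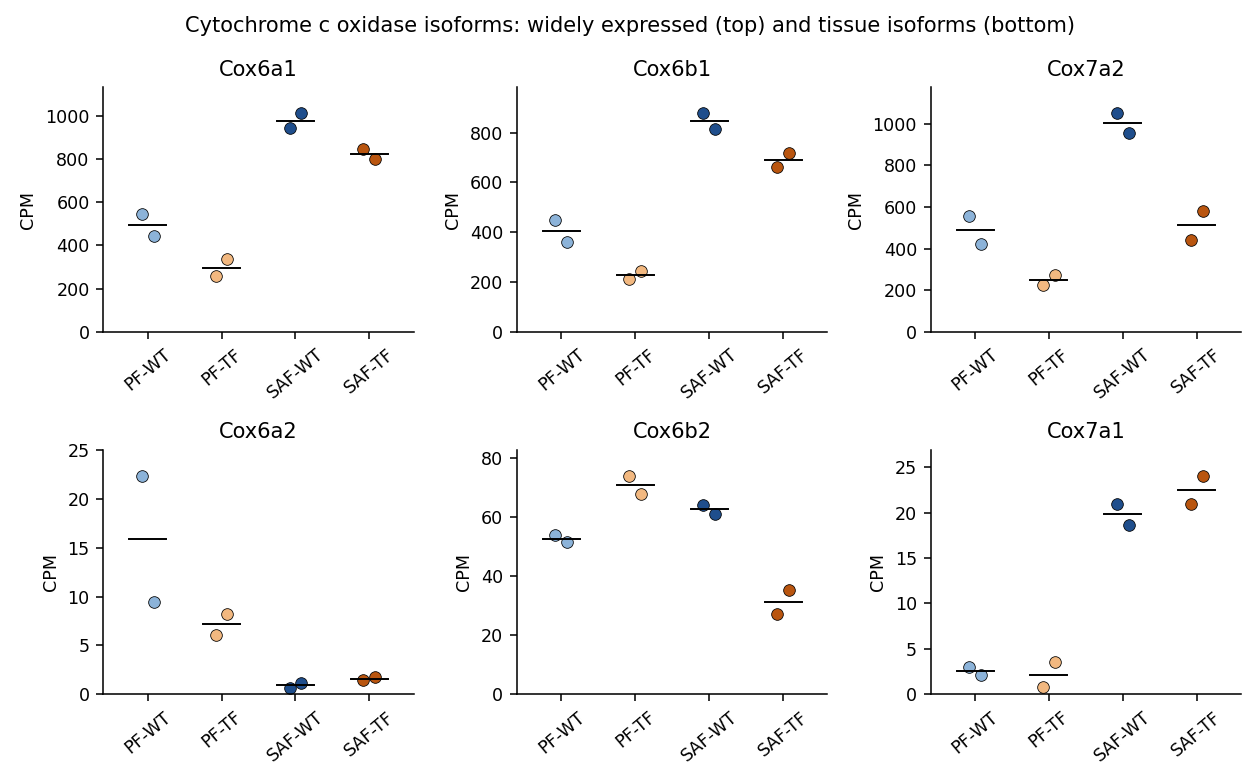
CPM in each library (points) with group means (lines) for 3 widely expressed complex IV isoforms in the upper row and their tissue isoforms in the lower row, each on its own axis from 0. Cox6a2 was lower in every small antral library (at most 1.80 CPM) than in any preantral one, Cox7a1 was higher in every small antral library (at least 18.6 CPM), and Cox6b2 was lowest in SAF-TF.

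In complex V, the ATP synthase, 10 of 15 genes rose in wild type and 12 in transplanted follicles, and none fell. All 4 peripheral stalk subunits, which hold the catalytic head still, rose in both sources. The alpha and beta subunits of the catalytic head were not called. Atp5b, the beta subunit that forms ATP, had 430 and 1006 CPM in PF-WT, 452 and 505 in SAF-WT, 841 and 751 in PF-TF and 987 and 573 in SAF-TF, and the stages overlapped in both sources. Atp5a1, the alpha subunit, had 300 and 536 CPM in PF-WT against 371 and 375 in SAF-WT. In transplanted follicles Atp5a1 had 429 and 366 CPM against 849 and 480, a difference of 0.74 ± 0.32 (adjusted p = 0.0872). It passed under 9 alternatives, among them DESeq2 (0.85, adjusted p = 0.0219) and the GC and length correction (1.15, adjusted p = 0.0073).

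Atp5g3, 1 of 3 genes that encode the same mature proton-carrying c subunit, was the most abundant member per kilobase. It had 1447 and 1540 CPM in PF-WT, 2551 and 2473 in SAF-WT, 880 and 989 in PF-TF and 1935 and 2148 in SAF-TF. The stages did not overlap, and it rose by 0.75 ± 0.17 (adjusted p = 0.00765) and 1.13 ± 0.17 (adjusted p = 0.000691). The wild type call was lost without SAF-WT replicate 1 (0.72, adjusted p = 0.0622). Atp5g3 held between 83.9% and 89.7% of the c subunit level per kilobase in every library, Atp5g1 between 10.1% and 15.7%, and Atp5g2 at most 0.531%.

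Pseudogene copies limit some of these values. Reads listed for copies of Atp5l outnumbered those of Atp5l itself, 7072 against 808 over the 8 libraries, as did those for copies of Cox7c (9944 against 2121), and copies of Atp5g2 held 1.54 counts per count of the gene. The levels of Atp5l, Cox7c and Atp5g2 are therefore uncertain, and that of Atp5g1 less so (0.562 counts in copies per count). The count tables do not state a strand setting, so reads of antisense or overlapping genes cannot be told apart from those of the members.

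The stage effects in the 2 sources share no library and can be set side by side. Of the 78 members 52 rose in both, 1 (Ndufb5) passed in wild type only and 9 in transplanted follicles only, among them Ndufs1, Sdhc, Uqcrfs1 and Atp5d. A further 14 passed in neither, among them the head subunits Atp5a1 and Atp5b, the core proteins Uqcrc1 and Uqcrc2, Sdha and Ndufv1. Across members the log2 fold changes of the 2 sources had a Pearson r of 0.83 and a Spearman rho of 0.73 (n = 78 genes, which share libraries within a source and are not replicates). The fold change was larger in transplanted follicles for 55 members and for 9438 of all 17925 genes, and after a correction for GC content and length for 36 members.

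The test of that difference called no member in either direction, beside 0.658% of all genes called higher and 0.245% called lower with edgeR. At an unadjusted p under 0.05 there were 9 members, beside 15.4% of all genes. DESeq2 called 0 members higher and 1 lower, beside 2.69% and 1.83% of all genes. After Cox6b2, the smallest adjusted p values were those of Atp5d, the delta subunit of the central stalk (0.94 ± 0.31, adjusted p = 0.19), and of Sdhb (0.80 ± 0.28, adjusted p = 0.208).

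**Figure D3:**
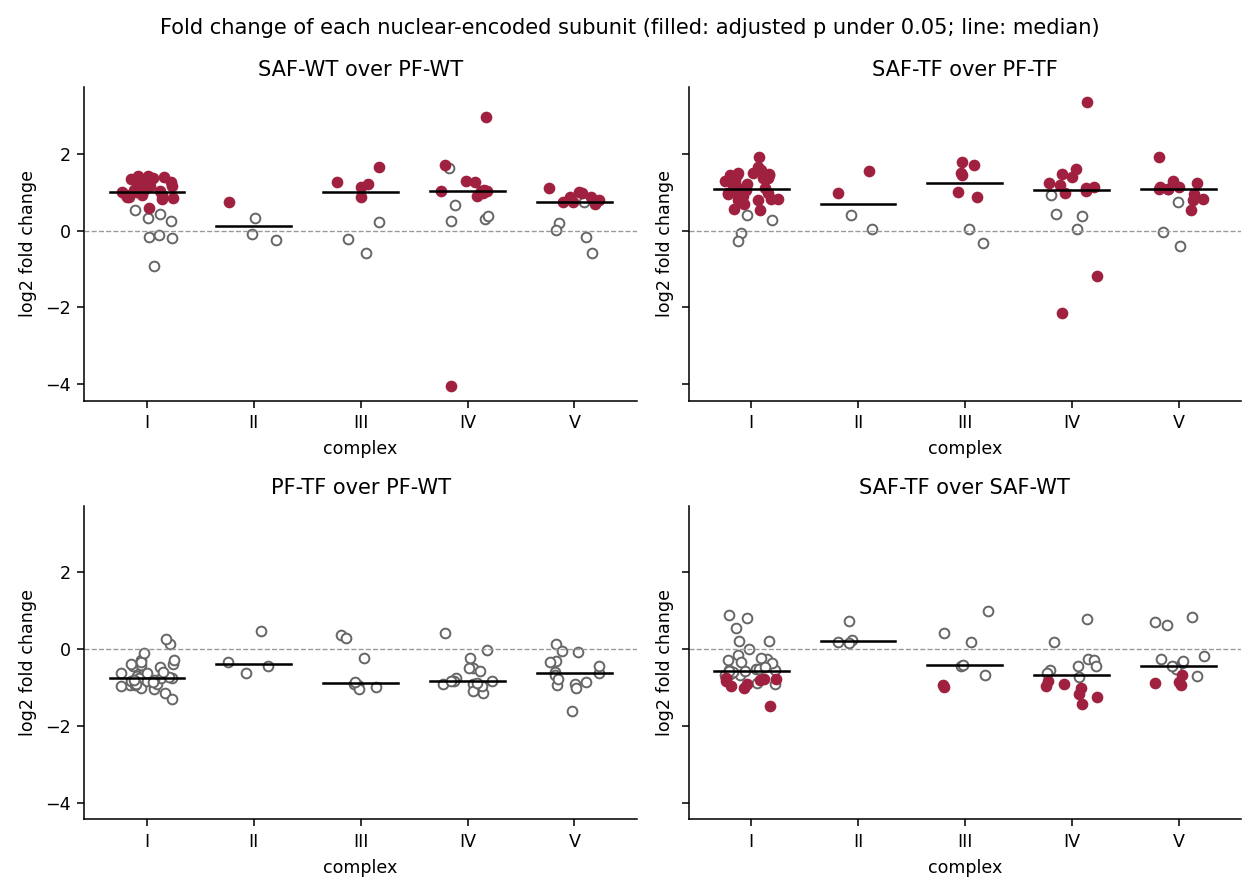
Log2 fold change of each of the 78 tested members in the 4 pairwise comparisons, by complex, with filled points for adjusted p under 0.05 and a line at the median of each complex. Most members lie above 0 in the stage comparisons (67 in wild type and 71 in transplanted follicles) and below 0 in the source comparisons (71 at the preantral and 60 at the small antral stage).

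At the preantral stage, follicles from transplanted cells had lower values than wild type ones for most members, but no difference passed the test. The median log2 difference was -0.73 over members against -0.03 over all genes, 71 of 78 members lay below 0, and the 2 groups did not overlap for 65, beside 49.0% of all genes. With edgeR, 0 members were called in either direction, beside 0.0669% of all genes called higher and 0.151% called lower. At an unadjusted p under 0.05 there were 55, beside 20.7% of all genes. DESeq2 called 0 members higher and 39 lower, beside 1.85% and 5.52% of all genes.

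The smallest p belonged to Ndufa12, an accessory subunit at the peripheral arm, with 192 and 182 CPM in PF-WT and 72.0 and 96.2 in PF-TF (-1.15 ± 0.22, adjusted p = 0.058). Without PF-WT replicate 2, 32 members were called lower, beside 3.49% of all genes tested in that fit. That library stood apart from PF-WT replicate 1 in several long members: Uqcrc1 was higher by 1.40 and Atp5b had 9066 counts against 3277. The PF-WT replicates also differed in erythroid markers (5383 and 2023 summed CPM, against 9.7 and 337.7 in PF-TF) and macrophage markers (496.4 and 98.3), whose part in these values was not tested.

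At the small antral stage 22 members were lower in SAF-TF than in SAF-WT and none was higher, beside 5.34% and 4.61% of all genes. The median log2 difference was -0.52 over members and 0.00 over all genes. The calls comprised 9 genes of complex I, 2 of complex III, 7 of complex IV and 4 of complex V, and none of complex II. Cox6c had 2501 and 2306 CPM in SAF-WT against 837 and 949 in SAF-TF (-1.43 ± 0.19, adjusted p = 0.00442). Ndufa12 had 488 and 419 CPM against 144 and 179 (-1.49 ± 0.22, adjusted p = 0.00609). Cox7b, a small subunit needed for complex IV assembly, had 981 and 863 CPM against 338 and 434 (-1.26 ± 0.25, adjusted p = 0.0167). For these 3 genes the small antral groups lay far apart, with the wild type libraries higher.

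The number of these calls depended on which libraries were fitted, and leaving out a library leaves 1 in its group. The members' median stayed below 0 in those fits. It ran from -0.45 without SAF-TF replicate 1 to -0.60 without SAF-TF replicate 2. The 22 became 0 without SAF-TF replicate 1 (beside 0.259% of all genes called lower in that fit) and 5 without SAF-TF replicate 2 (2.10%). They became 1 without SAF-WT replicate 1 (0.668%), 2 without SAF-WT replicate 2 (0.788%), and 7 without either PF-TF library (4.13% and 4.12%). The calls over all genes thus shrank in the same fits. The members called lower became 5 with library totals as the only scaling (3.29%), 7 after the GC and length correction (3.40%), 6 with the replicate number as a block (3.26%), and 36 when only these 4 libraries were fitted (11.7%).

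The members that lay above 0 in this comparison included most of the core and catalytic subunits. Complex II was above 0 for all 4 genes (0.16 to 0.75), and 5 of 7 complex I core subunits, both complex III core proteins and 3 of 5 subunits of the complex V head and central stalk lay above 0, with none past the test. Uqcrc1 had 126 and 170 CPM in SAF-WT against 378 and 214 in SAF-TF (1.00 ± 0.43, adjusted p = 0.16), and Sdha had 92.6 and 91.8 against 187 and 122 (0.75 ± 0.28, adjusted p = 0.121). Neither pair of groups overlapped, and SAF-TF replicate 1 was the higher of its pair for both genes. Most core and catalytic subunits above 0 here have transcripts of 1000 bases or more. Members that long had a median of 0.09 in this comparison, and -0.08 after the GC and length correction. Shorter members had -0.60 and -0.36. Class and length thus went together, and their parts in this pattern were not tested.

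Transcript length ran through all 4 comparisons. Among the 52 members with transcripts under 1000 bases 42 rose between the wild type stages (median 1.02), beside 28% of all genes that short. Among the 26 longer ones 11 rose (median 0.35), beside 10.9% of all longer genes. Over members, fold change and length had a Spearman rho of -0.52 in wild type and -0.42 in transplanted follicles over the stages. It was 0.48 between the sources at each stage (n = 78 genes). Over all genes of known length the rho was weaker, at -0.07 and -0.09 over the stages. Between the sources it was 0.17 at the preantral and 0.1 at the small antral stage. The medians of all genes under 1000 bases had the same sign as those of the short members. They were 0.58 and 0.64 over the stages and -0.59 and -0.57 between the sources at the preantral and small antral stage.

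Replicates of 1 group differed with length as well: the log2 ratio of replicate 2 to replicate 1 over members had a rho with length of 0.58 in PF-WT, -0.40 in PF-TF, 0.09 in SAF-WT and -0.47 in SAF-TF. With GC content and length as correction terms per library, 60 members rose in wild type and 58 in transplanted follicles, beside 19.8% and 21.8% of all genes, and the rho values became -0.02 and 0.12. The medians were then 0.92 in both sources, or 0.73 and 0.82 above the median of all genes. The source differences shrank under the same correction, to medians of -0.22 and -0.31 and 7 calls at the small antral stage.

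**Figure D4:**
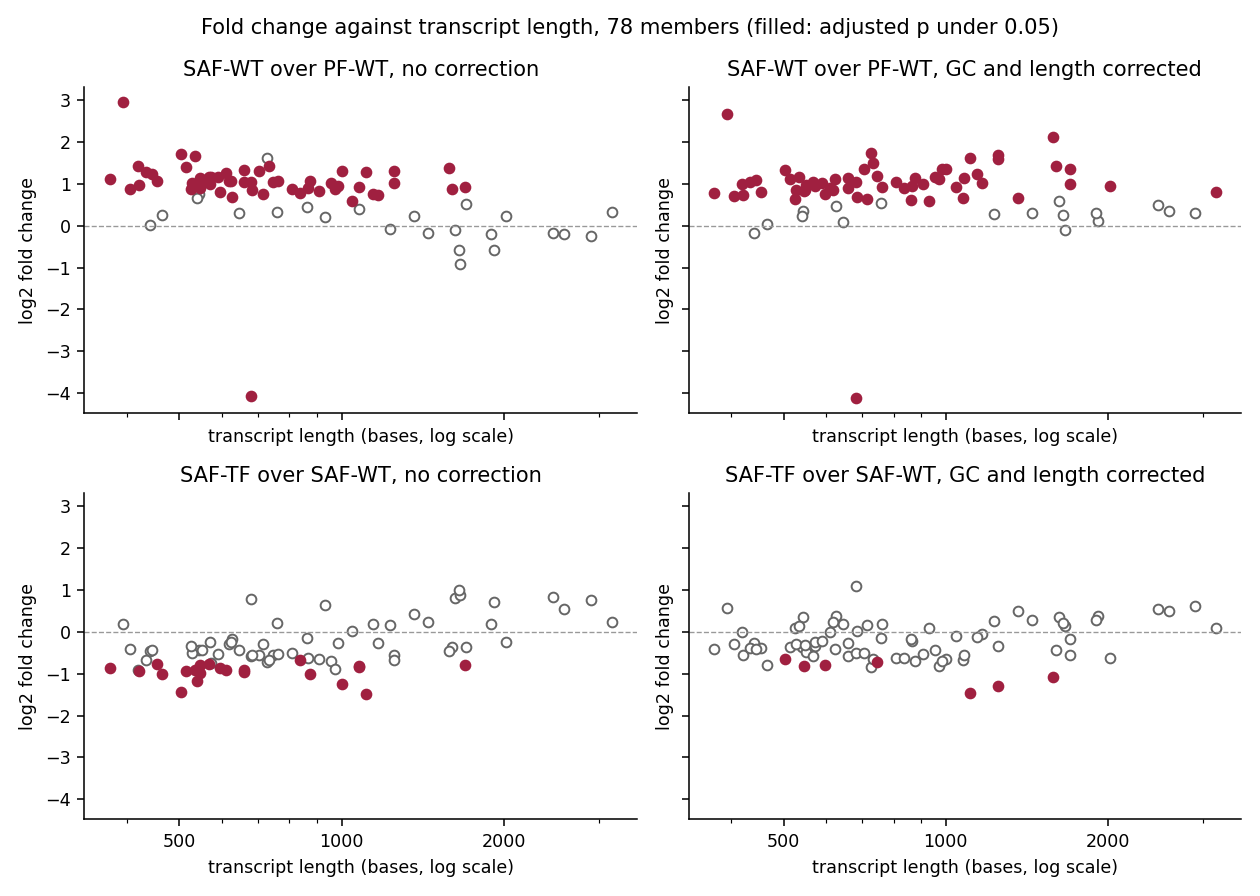
Log2 fold change of the 78 tested members against transcript length on a log axis, without (left) and with (right) a correction for GC content and length, for the wild type stages (upper row) and for the sources at the small antral stage (lower row), with filled points for adjusted p under 0.05. The slope with length (rho -0.52 and 0.48) was near 0 in the upper row (-0.02) and 0.15 in the lower row after correction, while the stage calls went from 53 to 60 higher and the source calls from 22 to 7 lower.

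The 13 mtDNA-encoded subunits, the catalytic partners of these proteins, were counted beside them, and the difference between the sets was not tested. None passed the test between the wild type stages, and their sum was 15336 and 22803 CPM in PF-WT and 19162 and 21812 in SAF-WT, which overlapped. In transplanted follicles 6 rose, beside 18.2% of all genes, with a median log2 fold change of 0.73 over the 13. The sum went from 20589 and 22204 CPM in PF-TF to 38868 and 28211 CPM in SAF-TF. ND4, a proton-pumping subunit of complex I, rose there by 1.06 ± 0.20 (adjusted p = 0.00249). Between the sources at the small antral stage 1 of the 13, ND2, was called higher in SAF-TF, beside 4.61% of all genes. Its difference was near the threshold (1.02 ± 0.27, adjusted p = 0.0446). The nuclear members called lower there numbered 22, beside 5.34% of all genes. The libraries hold polyadenylated RNA, and how evenly mitochondrial transcripts entered them was not tested.

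Genes around the complexes were counted from lists, whose counts stand beside 12.7% of all genes that rose and 22.5% that fell in wild type, and 18.2% and 25.0% in transplanted follicles. Of 10 subunits outside the naming families, 4 rose and 1 fell in wild type and 6 rose and 2 fell in transplanted follicles. Atpif1, the inhibitor of the ATP synthase, had 584 and 435 CPM in PF-WT and 1913 and 1775 in SAF-WT (1.86 ± 0.21, adjusted p = 0.000235). Of 15 complex I assembly factors 2 rose and 1 fell in wild type and 3 rose and 2 fell in transplanted follicles, and of 29 factors for complexes II to V 8 rose and 3 fell, and 9 rose and 4 fell. Cox10, which makes the haem A precursor of complex IV, fell from 130 and 84.1 CPM in PF-WT to 9.87 and 12.6 in SAF-WT and from 108 and 120 in PF-TF to 13.0 and 10.6 in SAF-TF (-3.25 and -3.28).

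Among 20 regulators of mitochondrial gene expression 3 rose and 5 fell in wild type, and 3 rose and 8 fell in transplanted follicles. Nrf1, whose motif was searched above, fell from 47.7 and 43.8 to 12.6 and 12.3 CPM in wild type (-1.87) and from 68.6 and 62.0 to 13.5 and 13.6 CPM in transplanted follicles (-2.26). Esrrb, an estrogen-related receptor, fell too (-5.01 and -5.41 on the log2 scale). The oocyte markers fell between the same stages, and the part of that shift in the values of Nrf1 and Esrrb was not tested. Gabpa, an ETS factor, rose in wild type (0.91 ± 0.22, adjusted p = 0.0101). Of 17 genes of the tricarboxylic acid cycle and pyruvate dehydrogenase 2 rose and 1 fell in wild type and 3 rose and 3 fell in transplanted follicles, and of 21 carriers, pores and import genes 2 rose and 2 fell, and 5 rose and 1 fell.

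The authors' deposited tables, made by their own test within each source, list 66 members higher and 1 lower at the small antral stage in wild type, beside 20.7% and 14.0% of their genes. In transplanted follicles they list 65 higher and 2 lower, beside 24.0% and 16.7%.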

How the data were processed

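RNA of 8 single follicles was sequenced, 2 per group. Libraries were made with a SMARTer low-input kit, per the labels' protocols. The submitters' processing notes name HISAT2 2.0.1 and the GRCm38 build; the sources used here do not give the read counter, annotation or strand setting. There is 1 deposited table per source, whose library columns are unnormalized counts per the file headers, and these counts were tested. The deposited normalized columns are a signal, a group mean after 1 scale factor per library, and served only to recover the authors' scale factors. The deposited log2 ratio and the deposited FDR, an adjusted p-value from a test that is not named, were used only for the authors' own calls.

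The 21997 genes in both tables were fitted together with edgeR 4.0.16 (R 4.3.3): filterByExpr with a minimum count of 10, TMM scaling, 4 groups, quasi-likelihood tests with 4 residual degrees of freedom and Benjamini-Hochberg adjustment over 17925 genes, with a threshold of 0.05. Fold changes are SAF over PF and TF over WT, given with their SE. The 5 tests were the stage in each source, the source at each stage, and the difference between the stage effects. The fit was tested on simulated data.

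Alternatives were RLE, upper-quartile, library-total and authors' scaling, a GC and length correction per library (mgcv 1.9.3), no filter, a filter at a mean of 10 CPM, DESeq2 1.42.0, a fit of the compared libraries only, the replicate number as a block, and leaving out each library. Length and GC came from 1 transcript per gene (GENCODE M21) and were known for all 80 members and 86.2% of genes. Genes were named by rule: isoform families, core subunits, the 3 smallest adjusted p per comparison and direction, calls against the majority, the 3 smallest p of the interaction, members failing the filter and the highest level per complex; other genes serve as examples from their lists. The members, lists and rules were chosen with earlier results of these data known. Genes listed in 1 table only were left out.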

Additional observations from a re-analysis of the deposited data

How the results depend on the processing

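Of 60 calls on named members, 36 held under every alternative run for them. Over 1069 values of these calls under alternatives, 970 kept direction and side of the threshold, 98 missed it, and 1 reversed: Uqcrb between the sources at the small antral stage, at 0.126 (adjusted p = 0.745) after the GC and length correction. A further 140 named values without a call gave 2356 values under alternatives, of which 94 passed the threshold and none of these with the opposite sign.

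The count of members that rose between the wild type stages ran from 51 with library totals to 62 with the authors' scale factors, and from 32 to 54 when a library was left out; in transplanted follicles it ran from 55 with the replicate block to 66, and from 49 to 65. Members that fell in wild type numbered 2 with library totals, 0 under the 10 CPM filter, which drops Cox6a2, and 1 to 4 with a library left out; in transplanted follicles 1 under the 10 CPM filter and 1 to 2 with a library left out. Between the sources at the preantral stage, 3 members were lower without the filter, 39 with DESeq2 and 0 to 32 with a library left out. At the small antral stage the lower members numbered 5 with library totals, 7 after the GC and length correction, 36 in the fit of the 4 libraries alone, 6 with the replicate block and 0 to 28 with a library left out, and the higher members 1 with library totals, 1 under the 10 CPM filter, 6 in the fit of the 4 libraries alone and 0 to 4 with a library left out. The interaction gave 1 lower member, Cox6b2, after the GC and length correction and with DESeq2. Apart from fewer genes or libraries, the cause of these shifts was not tested.

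Replicate numbers pair the samples by number only: deviations of same-numbered libraries correlated between -0.11 and 0.095 over 6 pairs of groups. With the block, 52 and 55 members rose between the stages. Groups of 2 and a coefficient of variation of 0.303 between replicates limit what could be called.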
